A study of Gallus gallus with 6 samples.

Results

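Molecular chaperones and heat shock proteins were followed in the brain of stage 29 chick embryos (Gallus gallus), at 6 to 6.5 days of incubation. The members were all genes whose symbol begins with HSPA, HSPB, HSPD, HSPE, HSPH, HSP90 or DNAJ, or with CCT or BAG and a digit, on probe sets that the platform annotation gives to a single gene. These were 76 genes with 145 probe sets, of 13008 genes and 37693 chicken probe sets tested. Each gene is represented by its brightest probe set, meaning the one with the highest mean over all arrays, and other probe sets are named as such where they are given. By the RefSeq annotation 5 members lie on the Z chromosome (DNAJA1, DNAJB5, DNAJC21, DNAJC25 and HSPB3) and 71 on autosomes.

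The groups were 3 pools of brains from genetically female embryos and 3 pools from genetically male embryos, all without treatment as far as the labels say. Each pool held 5 to 8 embryos and was put on 1 Affymetrix array. Pools, and not single embryos, are therefore the replicates, and the labels do not say how the tissue was dissected. Values are log2 signals after RMA, a procedure that subtracts background, scales all arrays to 1 distribution and gives each probe set a summary value. A difference of -1 on this scale is a halving of signal. All differences are female minus male. In such tissue samples, fewer cells of a type and less RNA per cell cannot be told apart.

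Chaperones bind unfolded or partly folded proteins, keep them from aggregating and let them reach their working form. Hsp70 proteins (HSPA genes) bind and release clients in an ATP cycle. J-domain proteins (DNAJ genes) bring clients to Hsp70 and start ATP hydrolysis, while BAG proteins and Hsp110 proteins exchange the nucleotide so that the client is released. Hsp90 completes the folding of kinases, receptors and other signalling proteins. Chaperonins (HSPD1 with HSPE1 in mitochondria, the CCT ring in the cytosol) fold proteins inside a closed chamber, and actin and tubulin, which growing neurons need in bulk, are known clients of the CCT ring. Small heat shock proteins (HSPB genes) hold unfolding proteins without using ATP. In birds males are ZZ and females ZW, and Z genes are known to be only partly equalised in dose between the sexes.

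The arrays resembled each other closely. Between pools, Pearson correlations over all chicken probe sets, which are not independent replicates, lay between 0.991 and 0.995 within a sex and between 0.988 and 0.992 across the sexes. The 7 markers of neural progenitors and neurons were all above background, the level under which 95% of the viral probe sets of the array lay (4.21). Their mean was 9.36 to 9.49 in female pools and 9.06 to 9.18 in male pools, without overlap. NES, an intermediate filament of neural progenitors, was the only marker past an adjusted p of 0.05 (0.55 higher in females, adjusted p = 0.0380 from limma). The other neural markers were higher in females as well, from 0.02 (STMN2) to 0.45 (TUBB3). NES, TUBB3, NCAM1 (0.39) and SOX2 (0.29) had every female pool above every male pool, where 19.1% of all genes showed no overlap in either direction. The means of 4 haemoglobin genes, of 10 erythroid genes listed, were 11.4 to 12.1 in female pools and 11.9 to 12.4 in male pools. Among them HBZ was apart between the sexes (difference -0.94, every female pool below every male pool, adjusted p = 0.251). HBA1, HBAD and HBE differed by -0.11, -0.16 and -0.28, with overlapping pools. Female pool 3 stood apart in hindbrain and cord HOX genes, with HOXB3 at 3.75 and HOXA3 at 3.25 there, both under the background level, against 7.62 and 7.06 in female pool 1. Markers of muscle, eye, mesenchyme and endothelium and genes of the handling response held no gene past the threshold. The mean of the 8 muscle markers, 4 of them above background, was nonetheless 4.25 to 4.28 in female pools and 4.35 to 4.43 in male pools, and that of 5 handling genes, 3 of them above background, was 6.04 to 6.14 in female pools and 5.89 to 5.98 in male pools. The sexes did not overlap in either, with the muscle gene TNNI2 at a difference of -0.33 and the handling gene EGR1, whose mean lay under background, at 0.42. The part of any of these in the results below was not tested.

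DNAJA1 was the only chaperone gene with a sex difference past the threshold, lower in female brains, and it reached that threshold on 1 of its 2 probe sets. It was also the only call among the 145 chaperone probe sets, while 0.554% of all chicken probe sets had an adjusted p under 0.05. It encodes a class A J-domain protein of the cytosol, an Hsp70 partner. On its second probe set the log2 signals were 9.34, 9.42 and 9.53 in the female pools and 9.91, 9.96 and 10.03 in the male pools. All female pools lay below all male pools, with a wide gap between the sexes next to the spread inside each. The means were 9.43 ± 0.10 in females and 9.97 ± 0.06 in males (SD, n = 3 each), a difference of -0.54 with a standard error (SE) of 0.08 and a 95% confidence interval from -0.72 to -0.35. This is a female signal of 0.689 times the male signal, with an adjusted p of 0.0376 from limma with Benjamini-Hochberg adjustment over all 37693 probe sets.

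The brightest DNAJA1 probe set had 10.00, 9.90 and 10.01 in the female pools and 10.34, 10.25 and 10.32 in the male pools. Here too the sexes did not overlap. Its difference was -0.34 (SE 0.07, 95% confidence interval -0.50 to -0.17, 0.792 times the male signal), and its adjusted p was 0.147. Both probe sets carry the suffix that Affymetrix gives to probe sets whose probes match more than 1 transcript, so signal from a related transcript cannot be told apart from DNAJA1 itself. The same limit holds for the 40 of the 145 chaperone probe sets with this suffix, 20 of which are the brightest of their gene. The call on the second DNAJA1 probe set was lost when any 1 of the 6 pools was left out (adjusted p 0.0702 to 0.180 from limma), while its difference stayed between -0.59 and -0.49. Without female pool 3, which stood apart in HOX genes, it was -0.59 (adjusted p = 0.0702). With the mean of both probe sets as the value of the gene, DNAJA1 was 0.44 lower in females on the log2 scale and passed the threshold (difference -0.44, adjusted p = 0.0330).

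**Figure D1:**
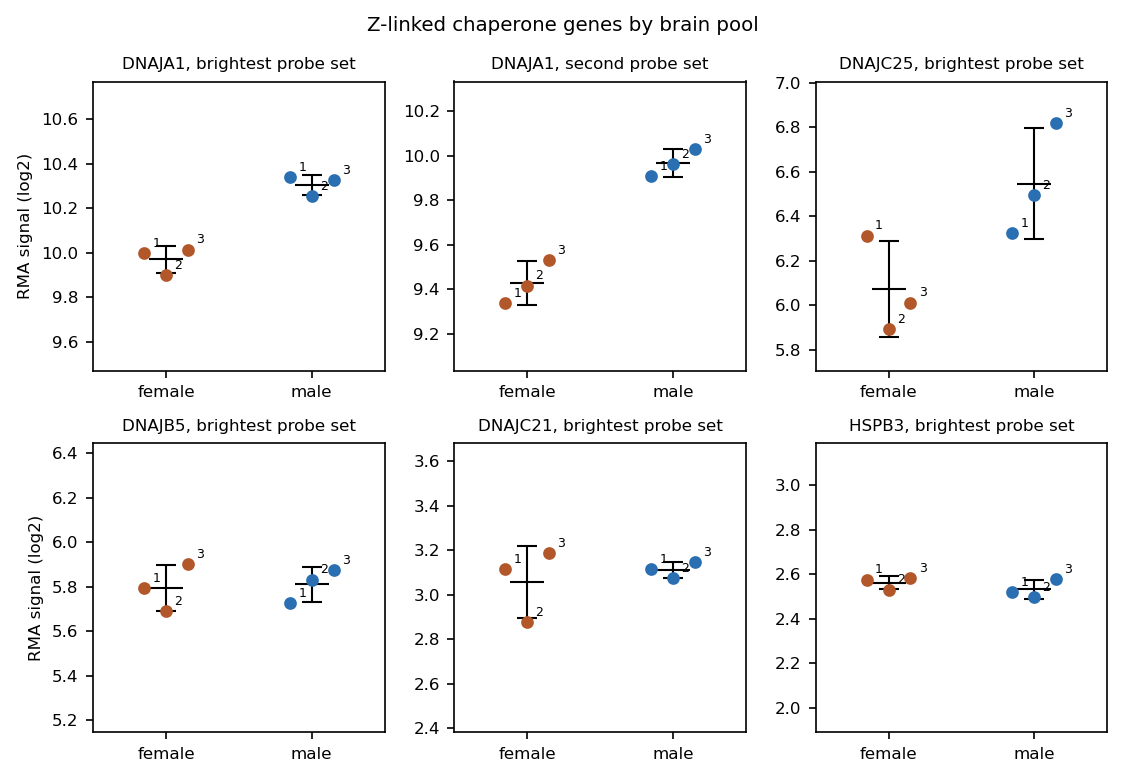
RMA signals (log2, vertical axis) of the Z-linked chaperone genes in 3 female and 3 male brain pools. Points are pools with their replicate numbers, long bars are means and short bars show 1 SD. Both DNAJA1 probe sets and DNAJC25 have every female pool below every male pool, while DNAJB5, DNAJC21 and HSPB3 overlap.

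DNAJC25, a membrane-bound J-domain protein, had the most negative difference among the brightest probe sets of all 76 genes. Its signals were 6.31, 5.89 and 6.01 in the female pools and 6.32, 6.50 and 6.82 in the male pools. The sexes did not overlap, but the highest female pool and the lowest male pool were nearly level. The difference was -0.47 (SE 0.15, 95% confidence interval -0.83 to -0.12) with an adjusted p of 0.340. A single probe set measures it, so there is no second reading to set beside these values.

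DNAJB5, a class B J-domain protein, showed overlapping sexes. It had 5.79, 5.69 and 5.90 in the female pools and 5.72, 5.83 and 5.88 in the male pools, and the 95% confidence interval of its difference of -0.02 ran from -0.21 to 0.18. That interval does not reach the median of the brighter Z genes given below. Its dimmer probe sets gave differences of 0.03 and -0.24, neither past the threshold. The interval of the latter ran from -0.62 to 0.14 and does include that median. DNAJC21, known in human cells for its part in ribosome assembly, and HSPB3, a small heat shock protein of muscle, were not above background. Their differences of -0.05 and 0.03 lie in that background and give no level for either gene.

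Over all 5 Z-linked members the median difference was -0.05, which is the value of DNAJC21 and thus a reading at background. It moved to between -0.12 and 0.04 when single pools were left out, with 0.04 reached without female pool 2, and gives no size for the group. Over the 605 Z genes on the array it was -0.18, and 17.2% of them were lower in females past the adjusted threshold on their brightest probe set, against 0 of the 5 members. With only genes whose signal reached the median of the chicken probe sets (4.91), the 3 remaining members had a median of -0.34 and the 377 Z genes one of -0.36, with 323 of these below 0. By brightest probe set DNAJA1 and DNAJC25 thus had differences on either side of that median and DNAJB5 one nearer 0. The second DNAJA1 probe set, at -0.54, lay on the same side of it as DNAJC25. Taken per pool, the mean deviation of the Z-linked members from their own means less that of the autosomal members was -0.06, -0.20 and -0.01 in the female pools and 0.06, 0.04 and 0.17 in the male pools. The female pools all lay below the male pools in this measure, with female pool 3 closest to them. As a score over chosen members it gets no p.

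Among the autosomal chaperones no probe set passed the threshold in either direction. By their brightest probe sets 7 of the 71 had an unadjusted p under 0.05, 4 lower and 3 higher in females (9.86%, all autosomal genes 11.1%), and in 9 the pools of the sexes did not overlap (12.7%, all autosomal genes 17.8%). With autosomal and Z-linked members together, by brightest probe set 0 of the 76 were lower and 0 were higher in females, where 0.923% of all genes were called. At an unadjusted p under 0.05 there were 9 members, 6 lower and 3 higher in females, which is 11.8% of them and near the 12.7% of all genes. Dropping female pool 2 left 3 such members and dropping male pool 1 left 5, while dropping any other pool gave 6 to 13. Over all chicken probe sets, adjusted calls fell from 209 to between 113 and 161 in these fits. The share of all genes at an unadjusted p under 0.05 is not given for them. Their counts are therefore not read as particular to the chaperones. In 11 members the pools of the sexes did not overlap (7 with females below, 4 with females above), or 14.5% against 19.1% of all genes. Both shares lie close to or under their background, so neither count sets the chaperones apart.

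How tightly the chaperones were held to 0 can be read from the intervals. The 71 autosomal members had a median difference of -0.00, with 37 below and 34 above 0, against a median of -0.01 over the 12207 autosomal genes. Differences of all 76 ran from -0.47 to 0.53, and 61 of them (80.3%) were under 0.2 in size, against 79.5% of all genes. The 95% confidence interval lay within 0.5 of 0 for 57 members (75%, all genes 81.5%) and within 0.3 of 0 for 36 (47.4%, all genes 39.7%). For the remaining members these pools leave room for differences above those sizes.

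**Figure D2:**
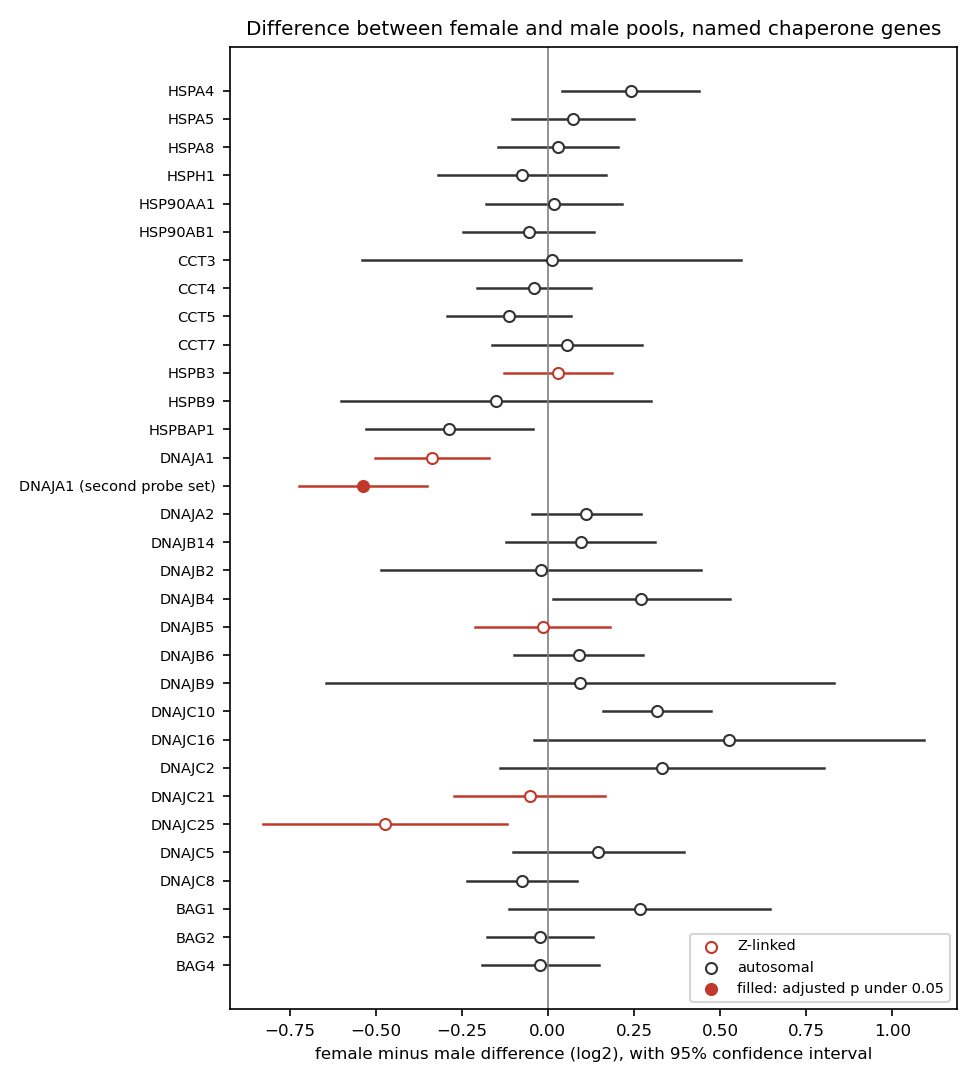
Female minus male difference (log2, horizontal axis) of the named chaperone genes with its 95% confidence interval. Red marks Z-linked and black autosomal members, and a filled point has an adjusted p under 0.05. The second DNAJA1 probe set is the only filled point, at -0.54, and most autosomal intervals include 0.

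The Hsp70 family had 9 members, of which 7 were above and 2 below 0, with a median of 0.07 and none past the adjusted threshold. HSPA8, the constitutive Hsc70 of the cytosol, had 12.75, 12.82 and 12.83 in the female pools and 12.86, 12.72 and 12.72 in the male pools. The sexes overlapped, and the interval of its difference of 0.03 ran from -0.14 to 0.20. HSPA5 (BiP), the Hsp70 of the endoplasmic reticulum, had a difference of 0.07 with an interval from -0.10 to 0.25. HSPA9 (mortalin), which pulls proteins into mitochondria, had one of 0.15 with an interval from -0.07 to 0.37. HSPA14, the Hsp70 that works at the ribosome, had one of -0.15, and HSPA13, an Hsp70 relative of the endoplasmic reticulum, one of -0.08.

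HSPA4, a nucleotide exchange factor of the Hsp110 type, was the Hsp70 family member with the smallest p. Its signals were 9.17, 9.30 and 9.14 in the female pools and 8.84, 9.02 and 9.03 in the male pools, with every female pool above every male pool. The difference was 0.24 (SE 0.09, 95% confidence interval 0.04 to 0.44, adjusted p = 0.387). Its second probe set gave 0.19, with 1 male pool above all female pools. The related exchange factors HSPA4L and HSPH1 had differences of 0.19 and -0.07, and the HSPH1 interval ran from -0.32 to 0.17.

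The 3 Hsp90 genes had differences close to 0 on their brightest probe sets. HSP90AA1, the stress-inducible cytosolic form, had 12.23, 12.13 and 12.01 in the female pools and 12.09, 12.18 and 12.04 in the male pools, and the interval of its difference of 0.02 ran from -0.18 to 0.21. HSP90AB1, the constitutive form, had a difference of -0.06 with an interval from -0.25 to 0.13. Both intervals lay within 0.3 of 0. HSP90B1 (GRP94), the form of the endoplasmic reticulum, had a difference of 0.02 but varied more, with 9.97, 10.32 and 9.85 in the female pools and 10.09, 10.32 and 9.68 in the male pools. On this brightest probe set pool 2 was the highest and pool 3 the lowest in both sexes. The second HSP90B1 probe set had every female pool above every male pool, with a difference of 0.22 (95% confidence interval 0.02 to 0.42, adjusted p = 0.439). There the order of the male pools was reversed, at 6.11, 6.06 and 6.13.

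The 9 chaperonin genes had differences between -0.11 and 0.09, none past the threshold. The 7 CCT subunits ranged from -0.11 (CCT5) to 0.06 (CCT7), and TCP1, the remaining subunit measured, which the symbol rule leaves out, had -0.03. CCT8 had 11.47, 11.37 and 11.43 in the female pools and 11.38, 11.46 and 11.41 in the male pools. CCT2 had 11.38, 11.31 and 11.39 in the female pools and 11.35, 11.44 and 11.40 in the male pools. In both genes the sexes overlapped and all 6 pools lay close together. The spread within a sex, taken as the residual SD of the fit, was at most 0.12 in 6 of the 7 subunits, and in the same number the 95% interval lay within 0.3 of 0. CCT3 was the exception, with 8.70, 8.10 and 8.32 in the female pools and 8.44, 7.87 and 8.77 in the male pools, so the interval of its difference of 0.01 ran from -0.54 to 0.56. Pool 2 was its lowest in both sexes, and it is measured by a single probe set. The mitochondrial pair HSPD1 (Hsp60) and HSPE1 (Hsp10) had differences of 0.05 and 0.09.

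**Figure D3:**
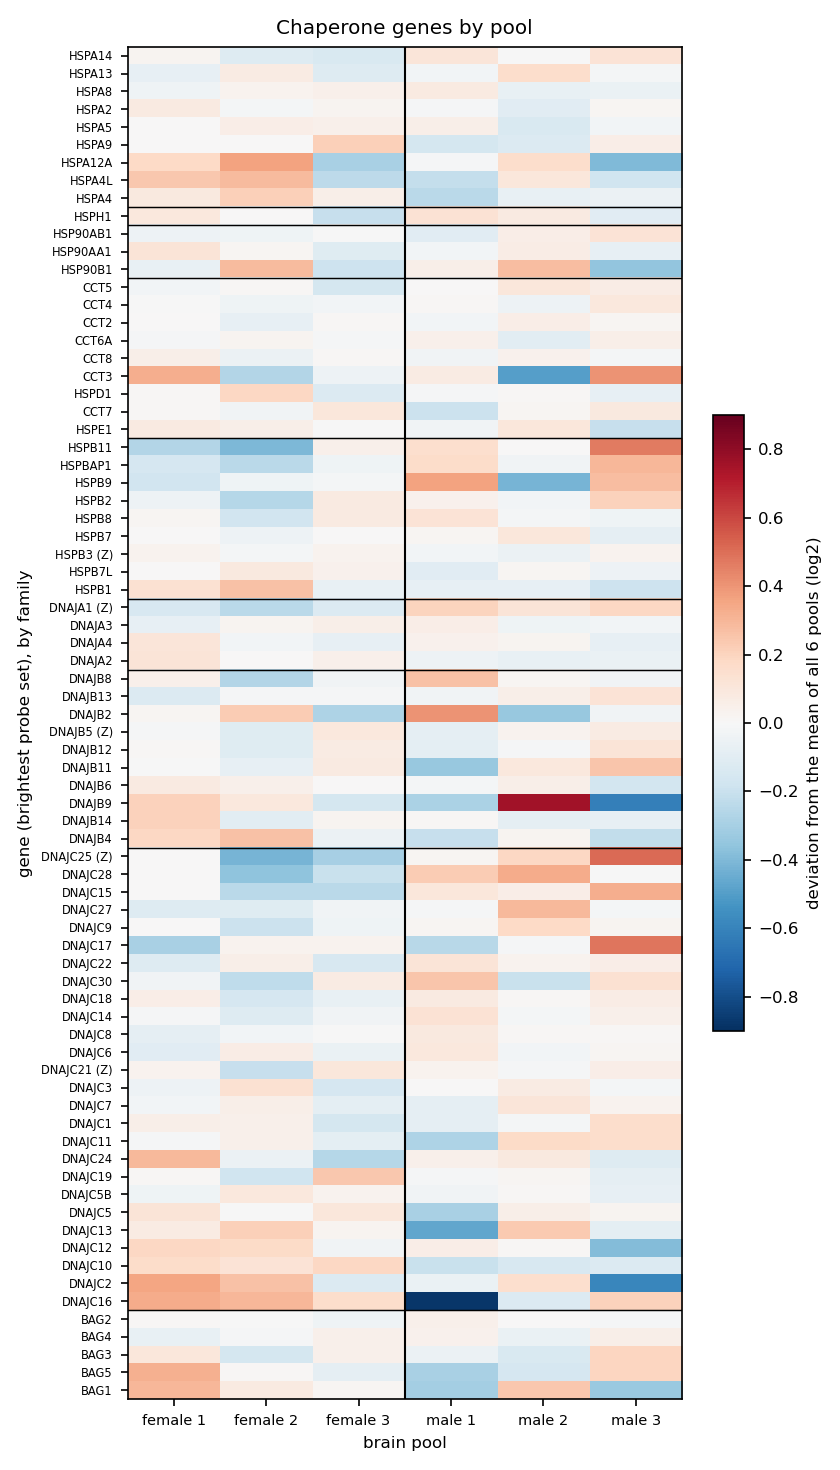
Deviation of each pool from the mean of all 6 pools (log2, colour) for the 76 chaperone genes, by family from top to bottom, with female pools on the left and male pools on the right. Z marks Z-linked genes. The CCT rows other than CCT3 are pale throughout, and the strongest colours are single pools of DNAJB9, DNAJC16 and DNAJC2.

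The J-domain genes form the largest group, with 40 members in classes A, B and C. Apart from DNAJA1, the class A genes DNAJA2, DNAJA3 and DNAJA4 had differences of 0.11, 0.00 and 0.01. DNAJA2, a cytosolic Hsp70 partner like DNAJA1, had every female pool above every male pool on its brightest probe set (10.69, 10.57 and 10.62 in females, 10.52, 10.51 and 10.51 in males, adjusted p = 0.622), but its second bright probe set gave -0.01. Whether DNAJA1 differs from these autosomal relatives in its sex difference was not tested.

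Class B had 10 members, 6 below and 4 above 0, with a median of -0.01. DNAJB4 had the smallest p, with 7.94, 8.01 and 7.70 in the female pools and 7.54, 7.77 and 7.52 in the male pools. Male pool 2 lay above the lowest female pool, and the difference was 0.27 (SE 0.11, adjusted p = 0.454). DNAJB6, which keeps aggregation-prone proteins soluble, had a difference of 0.09, and DNAJB14, a membrane protein of the endoplasmic reticulum, one of 0.10.

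Class C, whose members share little beyond the J domain, had 26 members with 18 below and 8 above 0 and a median of -0.05. Over all genes 7091 lay below and 5917 above 0. Of the 76 chaperone genes 8 had a difference of at least 0.3 in size, as had 1206 of all 13008 genes. Class C, the largest class, held 6 of the 8 chaperone genes. DNAJC10 (ERdj5), which reduces disulfide bonds of misfolded proteins in the endoplasmic reticulum, was the autosomal member with the smallest p. Its signals were 7.75, 7.71 and 7.77 in the female pools and 7.38, 7.43 and 7.46 in the male pools. The sexes did not overlap, and each was tight. Its difference was 0.32 (SE 0.07, 95% confidence interval 0.16 to 0.47), and at an adjusted p of 0.146 it did not pass the threshold. The second DNAJC10 probe set had the sexes apart in the same direction, with a difference of 0.16 (adjusted p = 0.488). The brightest DNAJC10 probe set carries the suffix described for DNAJA1, and the second does not.

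Mitochondrial J-domain genes varied in sign, with DNAJA3 at 0.00, DNAJC19 at 0.05, DNAJC11 at -0.04 and DNAJC30 at -0.13. DNAJC15, of the inner mitochondrial membrane, had 6.21, 5.97 and 5.97 in the female pools and 6.31, 6.27 and 6.54 in the male pools, with no overlap. Its difference was -0.32 (SE 0.11, adjusted p = 0.350). DNAJC28 had a difference of -0.37 (adjusted p = 0.354), with 1 female pool just above the lowest male pool. Over the 9 members listed as mitochondrial the median was 0.00, with 4 below and 5 above 0. Over the 12 members of the endoplasmic reticulum it was 0.01, with 6 on each side. By brightest probe set DNAJC10 was the only one of these 12 with an unadjusted limma p under 0.05 (8.33%, all genes 12.7%). Among the 9 mitochondrial members there were 2, DNAJC15 and DNAJC28, both lower in females (22.2%). Dimmer probe sets of DNAJC3, HSP90B1 and DNAJC11 also had an unadjusted p under 0.05. By sign alone, counts on either side of 0 were nearly even in both compartments.

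J-domain genes with known parts at synapses, in splicing and on chromatin did not pass the threshold either. DNAJC5, the cysteine string protein of synaptic vesicles, had 10.28, 10.16 and 10.27 in the female pools and 9.87, 10.21 and 10.19 in the male pools. The sexes overlapped through male pools 2 and 3, and the interval of its difference of 0.15 ran from -0.10 to 0.39. Its dimmer probe sets gave 0.10 and -0.07. DNAJC6 (auxilin), which strips clathrin from vesicles, had a difference of -0.06. DNAJC8, a protein of the spliceosome, had one of -0.08 with every female pool below every male pool, and DNAJC9, a histone chaperone, one of -0.15 with the same order of pools.

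The small heat shock protein genes and those sharing their prefix had 9 members, 8 of them above background, with a median of -0.05. HSPB1, the main heat-inducible member, had 6.71, 6.84 and 6.51 in the female pools and 6.50, 6.50 and 6.39 in the male pools. The lowest female pool was just above the highest male pool, and the difference was 0.22 (SE 0.10, 95% confidence interval -0.01 to 0.45, adjusted p = 0.490). HSPBAP1, named for its binding to HSPB1, had the opposite sign, with 7.66, 7.57 and 7.77 in the female pools and 7.97, 7.77 and 8.11 in the male pools. Its difference was -0.29 (SE 0.10, 95% confidence interval -0.53 to -0.04, adjusted p = 0.400), and the highest female and lowest male pool were nearly equal. HSPB11, a part of the intraflagellar transport machinery of cilia despite its symbol, had a difference of -0.42 (SE 0.15, adjusted p = 0.406) with overlapping pools. HSPB9 had -0.15 on its brightest probe set and -0.37 on the other, neither past the threshold.

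The BAG genes had 5 members with a median of -0.00. BAG2 and BAG4 had differences of -0.02 each, with intervals of -0.18 to 0.13 and -0.19 to 0.15. BAG1 had 7.10, 6.88 and 6.82 in the female pools and 6.49, 7.04 and 6.47 in the male pools, with male pool 2 among the females and a difference of 0.27 (SE 0.16, adjusted p = 0.622). BAG3, the heat-inducible partner of HSPB8, had -0.00 on its brightest probe set. Its second probe set had 5.92, 5.96 and 5.96 in the female pools and 5.69, 5.74 and 5.78 in the male pools, without overlap, and a difference of 0.21 (95% confidence interval 0.05 to 0.36, adjusted p = 0.350). BAG5, of the same family, had a difference of 0.17.

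**Figure D4:**
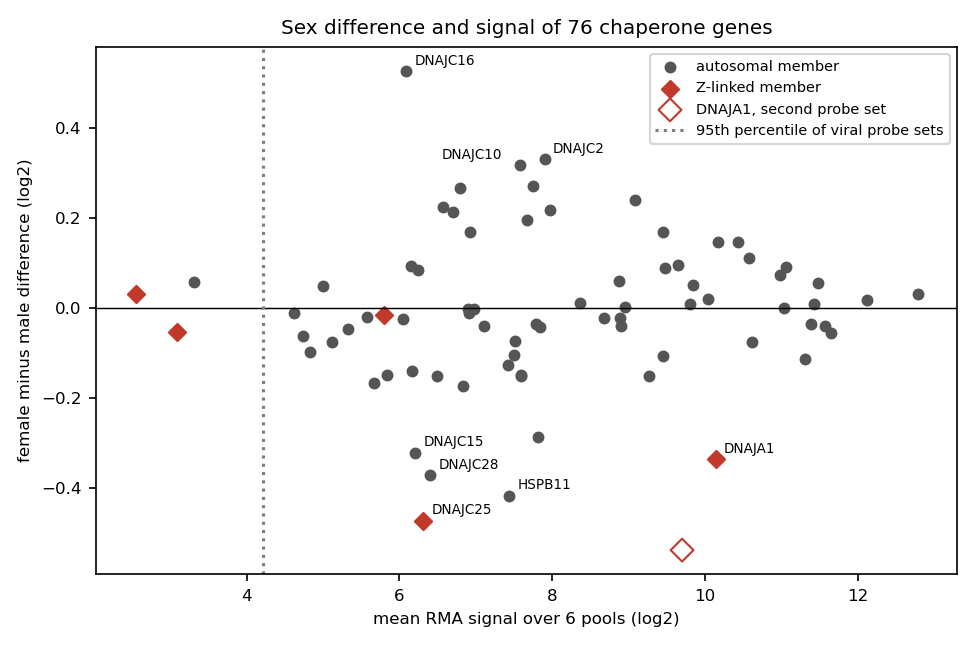
Female minus male difference (log2, vertical axis) against the mean RMA signal over 6 pools (log2, horizontal axis) for the 76 chaperone genes, one point per gene at its brightest probe set. Diamonds are Z-linked genes, the open diamond is the second DNAJA1 probe set, and the dotted line is the background level of 4.21. Genes with a difference of at least 0.3 in size are named, and 3 genes lie left of the line.

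Of 12 genes listed as heat-inducible in vertebrate cells 11 were measured. They were HSPA2, HSPA4L, HSPA8, HSPH1, HSP90AA1, HSPB1, HSPB9, HSPD1, HSPE1, DNAJA1 and BAG3. Their mean deviation was 0.05, 0.04 and -0.07 in the female pools and 0.03, -0.03 and -0.02 in the male pools, all within 0.07 of 0. Their median difference between the sexes was 0.03, with 7 above and 4 below 0, and DNAJA1 was the lowest of them at -0.34. That median is the value of HSPA8, which the list includes although it is described above as constitutive. The measured heat shock transcription factors HSF2, HSF3 and HSF4 had differences of -0.09, 0.11 and -0.14, none past the threshold. In HSF2 and HSF4 every female pool lay below every male pool, while the sexes overlapped in HSF3. Of all genes 19.1% showed no overlap in either direction. The 95% confidence intervals included 0, from -0.25 to 0.06 for HSF2 and from -0.31 to 0.03 for HSF4.

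Spread between pools of the same sex varied widely among chaperones. The median residual SD was 0.114 over the 70 members at or above the median signal and 0.122 over all genes at that level. In 9 of the 70 (12.9%) it was above 0.265, the 90th percentile of those genes. DNAJB9 (ERdj4), a partner of BiP that is induced when proteins misfold in the endoplasmic reticulum, varied most (residual SD 0.524). It had 6.36, 6.24 and 5.99 in the female pools and 5.87, 6.91 and 5.53 in the male pools, so the highest and lowest values were both male. The second bright DNAJB9 probe set was also highest in male pool 2, at 6.31. Among other genes of the endoplasmic reticulum, male pool 2 was the lowest of all pools for HSPA5 (10.84). It was the highest of the male pools for both DNAJC3 probe sets above background (7.91 and 6.06) and for HSPA13. For HSP90B1 it was the highest male pool on the brightest probe set (10.32) but the lowest on the second (6.06). By brightest probe set it was not the highest male pool for DNAJB11, DNAJB12, DNAJB14, DNAJC1, DNAJC10, DNAJC16 or DNAJC18. The mean deviation of the 12 members of this compartment was 0.07, 0.06 and -0.02 in the female pools and -0.14, 0.07 and -0.04 in the male pools. This mean includes DNAJB9 and the similarly variable DNAJC16. The median deviation was 0.03, 0.07 and -0.02 in the female pools and -0.05, 0.00 and -0.02 in the male pools.

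The other genes with large spread differed in which pools were low or high. DNAJC16, of the endoplasmic reticulum, had 6.42, 6.39 and 6.25 in the female pools and 5.22, 5.97 and 6.29 in the male pools, and its difference of 0.53 had an interval from -0.04 to 1.09. Male pool 1 was by far the lowest, and the second DNAJC16 probe set gave 0.10. DNAJC2, which works with HSPA14 at the ribosome, had 8.25, 8.17 and 7.78 in the female pools and 7.84, 8.05 and 7.31 in the male pools. Pool 3 was its lowest in each sex, as it was for HSPA12A, a distant Hsp70 relative named here after its values were seen. HSPA12A had 9.63, 9.82 and 9.16 in the female pools and 9.44, 9.61 and 9.06 in the male pools, and its second probe set had the same order of pools. DNAJB2, a J-domain protein of neurons, had a residual SD of 0.320 with overlapping sexes. Its lowest pool was pool 3 in females and pool 2 in males, and that of DNAJC16 pool 3 and pool 1. On its brightest probe set DNAJB9 was lowest in pool 3 of each sex. Its second bright probe set was lowest in female pool 2 (5.70) and male pool 3 (5.56). How often genes in general share the number of their lowest pool was not counted.

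**Figure D5:**
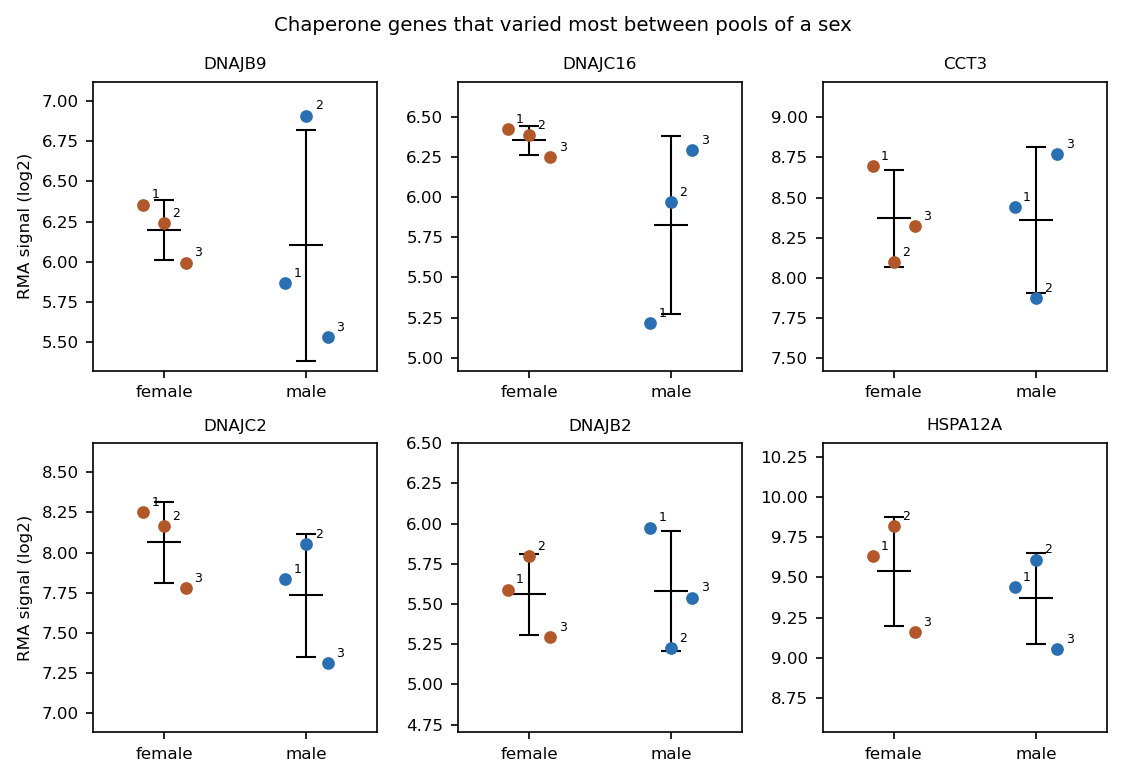
RMA signals (log2, vertical axis) of 6 chaperone genes with large spread between pools of a sex, in 3 female and 3 male pools. Points are pools with their replicate numbers, long bars are means and short bars show 1 SD. DNAJB9 is highest in male pool 2 and DNAJC16 lowest in male pool 1, while DNAJC2 and HSPA12A are lowest in pool 3 of each sex.

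Probe sets of the same gene did not always give the same reading. In 33 members at least 2 probe sets were above background. In 18 of these the differences had the same sign in all of them and in 15 they did not, with a median gap between the lowest and highest difference of 0.13. The gap was at least 0.3 in 4 genes, all of class C. It was widest for DNAJC3 (P58IPK), an inhibitor of the kinase PERK in the endoplasmic reticulum. The brightest DNAJC3 probe set gave -0.04, while a dimmer one had 6.44, 6.35 and 6.53 in the female pools and 5.30, 6.06 and 5.67 in the male pools, without overlap, and a difference of 0.76 (SE 0.18, adjusted p = 0.190). Without male pool 2 that probe set passed the threshold (difference 0.96, adjusted p = 0.0407). Leaving out any other pool did not give that call. DNAJC11, of mitochondria, had -0.04 on its brightest and -0.40 on a dimmer probe set (adjusted p = 0.100), which again had no overlap. DNAJC18 had -0.11, -0.05 and -0.08 on its brighter probe sets and 0.22 on its dimmest one above background. Why probe sets of a gene gave different readings was not tested.

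Other genes of protein folding, listed for their roles as co-chaperones, prefoldins, folding enzymes, proteases and stress regulators, also held no call. Of 57 listed 47 were measured, and 0 were lower and 0 higher in females past the adjusted threshold by limma, where 0.923% of all genes were called. At an unadjusted p under 0.05 there were 5 (10.6%, all genes 12.7%), and in 10 the pools of the sexes did not overlap (21.3%, all genes 19.1%). Their median was -0.03. The smallest p values were those of AHSA2, an activator of Hsp90 (0.26, adjusted p = 0.265, every female pool above every male pool), and PFDN2, a subunit of prefoldin, which hands actin and tubulin to the CCT ring (-0.22, adjusted p = 0.320, every female pool below every male pool). On the Z, GAK, a partner of Hsc70 in clathrin uncoating, had -0.39, SGTB, a co-chaperone with Hsp70 contacts, had -0.25 and CDC37L1, an Hsp90 co-chaperone, had 0.06, none past the threshold.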

How the data were processed

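RNA of 6 pools was labelled from oligo(dT)-primed cDNA, per the labels' protocols, and read on 1 array each. The deposited values are log2 expression values made by the authors with RMA (affy), per the submitters' processing notes (versions not given in the sources used here). The method removes differences shared by most genes and gives no detection call, so a signal above the 95th percentile of 689 viral probe sets was called above background. Of 38535 probe sets, 153 control and the viral ones were left out, and 37693 were tested with limma 3.58.1 (R 4.3.3, lmFit and eBayes, sex as the only term, two-sided, Benjamini-Hochberg, threshold 0.05). The number of arrays limits the precision. The labels give no source for the replicates beyond pools, so p-values measure the spread between pools. In simulated data with 50 changed probe sets per size, the fit called 40% of differences of 0.5 and 82% of differences of 1. Genes were named from 27166 probe sets with 1 symbol in the platform annotation (177 had several, 10350 none), and 26851 matched the RefSeq annotation of GRCg7b, used for chromosomes. The members and lists were chosen with earlier results of these data known. Named were all Z-linked members, any past the threshold, the 2 brightest and the autosomal member of smallest p per family, and the 5 of largest residual SD. Other members and HSF2, HSF3, HSF4 and TCP1 were picked after their values were seen. Of the other folding genes, those on the Z and the 2 of smallest p were named. Sequence features were not analysed here. Alternatives were robust eBayes with a trend, array weights, a replicate block, bright probe sets only, autosomal centring, the mean of a gene's probe sets, a threshold of 0.01, and leaving out each pool.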

Additional observations from a re-analysis of the deposited data

How the results depend on the processing

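By brightest probe set the counts of chaperone genes lower and higher in females past the adjusted threshold were 0 under every alternative but the mean of all probe sets of a gene, where 1 was lower (DNAJA1). The median difference of the Z-linked members, -0.05, was -0.34 with only probe sets or members at or above the median signal (3 Z-linked genes), since the dim genes drop out, and the gap between Z-linked and autosomal members, -0.18, was -0.28 there. Leaving out 1 pool at a time moved these to -0.12 to 0.04 and -0.22 to -0.12, and the median of the autosomal members, -0.0029, to -0.029 (without female pool 1) to 0.0061. Leaving out 1 pool also ended the call on the second DNAJA1 probe set, at differences between -0.59 (without female pool 3) and -0.49 (without female pool 1), and these fits called 113 to 161 probe sets in all against 209. The count of members with an unadjusted p under 0.05 was 3 to 13 in these fits. With the replicate number as a block 12 members had an unadjusted p under 0.05 against 9, DNAJA1 kept its call (adjusted p = 0.0476) and 245 probe sets were called in all. The share of all genes at an unadjusted p under 0.05 is not given for the fits without 1 pool or with the block. Changes in these member counts are therefore not read as particular to the chaperones. Female and male pools of the same number correlated at 0.01, 0.15 and 0.32 in their deviations from the group means, and pools of different numbers at -0.24 to 0.11. The labels do not say whether a number marks a shared batch, so the numbers are not shown to pair the pools. Of 507 alternative values of 43 named results, 483 kept direction and call, 6 lost the call, 2 gained it, 0 reversed a call and 16 uncalled ones changed sign. The 12 family and compartment medians lay between -0.07 and 0.07 in the main fit and between -0.15 and 0.11 over the alternatives. Of these alternative values 22 moved by more than 1 SD between pools and 122 did not. Some signs changed, as for the Hsp90 family from 0.02 to -0.05 without female pool 2. With 3 pools a sex, differences of 0.5 or less could often be missed, and signals near background give only a bound. In the simulated data 40% of differences of 0.5 and 82% of differences of 1 were called.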
